A study of Mus musculus with 6 samples.

Results

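The AP-1, Egr1 and Myc early genes are transcription factor and regulator genes, most of which cells switch on early after a stimulus. They were taken by symbol from a table of 14133 genes: Fos, Fosb and Fosl2 of the FOS family, Jun, Junb and Jund of the JUN family, Egr1, the IER genes Ier2 and Ier3, and Myc. Of the 10 symbols, 9 had values, and Fosb was not analysed here. The values come from RNA sequencing of hearts taken from C57BL/6 mice aged 1 month, in 2 groups of 3 libraries. The libraries labelled knockout (replicates 6, 7 and 8) have the genotype Trx1 flox/flox/MHC-Cre, that is, floxed alleles of the thioredoxin-1 gene (Txn1 in the table) and the MHC-Cre transgene, whose Myh6 (alpha-myosin heavy chain) promoter is used to bring Cre recombinase into cardiomyocytes. The control libraries (replicates 3, 4 and 5) have the genotype Trx1 flox/flox without Cre, so an effect of Cre itself cannot be told apart from one of the deletion. RNA of all cell types of the heart was in each library, and in such samples fewer cells of a type and less RNA per cell cannot be told apart. The labels do not say whether the replicates are different animals, and p-values cover the spread among these libraries alone.

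AP-1 is a dimer of leucine zipper proteins, made of a JUN protein with another JUN protein or with a FOS protein, and it binds DNA at a short palindrome. JUN is a strong activator in these dimers, while JUNB and JUND are weaker ones in many settings and can oppose it. FOS and EGR1, a zinc finger factor, are the classical immediate early products, made within minutes of growth factor, stretch or calcium signals and lost again soon after. MYC pairs with MAX to drive genes of growth and ribosome production, IER2 is a nuclear protein of the same early response, and IER3 is a short-lived protein linked to survival and to feedback on NF-kappaB. In the heart many of these genes are known for their rise under pressure load and other acute stress.

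The promoters of Junb and Ier3, where the groups did not overlap, and of Jun and Fos, where they did, are shown as examples. The groups did not overlap in Myc either, but no promoter sequence of Myc was at hand. They also overlapped in Fosl2 and Jund, whose windows were searched but are not printed. Each run is the 250 bases before the annotated start, read 5′ to 3′ on the gene's strand, from RefSeq on GRCm38.p6, and capitals mark matches to the motifs named after them. The runs lie at chr8:84978749-84978998 on the minus strand for Junb, chr4:95052223-95052472 on the minus strand for Jun, chr12:85473640-85473889 on the plus strand for Fos and chr17:35821463-35821712 on the plus strand for Ier3.
Junb: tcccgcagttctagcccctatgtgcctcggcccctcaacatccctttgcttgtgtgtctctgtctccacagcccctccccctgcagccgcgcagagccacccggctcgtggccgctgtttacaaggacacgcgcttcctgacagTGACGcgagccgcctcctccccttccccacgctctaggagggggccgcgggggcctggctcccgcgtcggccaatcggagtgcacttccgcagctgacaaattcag
Jun: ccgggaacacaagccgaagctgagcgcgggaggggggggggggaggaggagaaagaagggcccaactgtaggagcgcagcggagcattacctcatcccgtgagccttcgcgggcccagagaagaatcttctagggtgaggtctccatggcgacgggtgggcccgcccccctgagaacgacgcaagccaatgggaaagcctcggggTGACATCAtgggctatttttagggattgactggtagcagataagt
Fos: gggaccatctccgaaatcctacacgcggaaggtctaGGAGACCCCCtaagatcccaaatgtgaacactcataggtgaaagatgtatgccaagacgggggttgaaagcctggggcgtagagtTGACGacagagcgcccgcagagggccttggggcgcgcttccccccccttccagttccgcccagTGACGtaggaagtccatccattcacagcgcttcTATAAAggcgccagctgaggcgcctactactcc
Ier3: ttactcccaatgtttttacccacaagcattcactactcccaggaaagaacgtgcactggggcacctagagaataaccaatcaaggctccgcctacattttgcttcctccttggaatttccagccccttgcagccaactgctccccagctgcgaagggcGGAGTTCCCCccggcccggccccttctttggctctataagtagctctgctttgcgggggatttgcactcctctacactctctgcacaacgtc
TGACG, the core of the site for CREB and ATF proteins, was matched once in the Junb promoter, from 106 bases before the start, and at 129 and 66 bases before the start in that of Fos. It was found in 17.8% of all 32851 RefSeq promoter windows of this length, searched on both strands like every motif here. TGACATCA, a variant AP-1 site, was matched in the Jun promoter from 45 bases before the start, and 2.93% of the windows hold it. The kappaB site, bound by NF-kappaB, was matched in Ier3 from 92 bases and in Fos from 214 bases before the start (3.9% of the windows), and also in Fosl2. TATAAA was matched in Fos (12.4% of the windows). The full CREB site TGACGTCA (1.55% of all windows), the AP-1 site TGACTCA (4.46%), the MYC-MAX site CACGTG (6.02%), the EGR1 site GCGTGGGCG (0.536%) and the CArG box of SRF (1.47%) were not found in these windows or in those of Fosl2 and Jund. TGACG overlaps TGACGTCA by its letters. Bases further upstream were not searched, and Egr1, Ier2 and Myc were not among the windows of early genes. A site in those places would not be seen, so these absences do not show that a gene lacks it. A match is a description of letters only.

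Txn1, the targeted gene, did not separate the groups. It had 6.95, 6.90 and 7.13 log2 CPM in replicates 6, 7 and 8 of the libraries labelled knockout, against 6.64, 6.996 and 7.04 log2 CPM in controls 3, 4 and 5 (CPM scales the reads of a gene to the size of its library). Its log2 difference was 0.10, with a 95% confidence interval of -0.22 to 0.42 (limma adjusted p = 0.72). The value covers the whole gene and all cells of the heart, so the labels could not be checked from it, and the group is called labelled knockout throughout. Reads on genes came to 8347636 to 10236783 in the libraries labelled knockout and 9257984 to 13705281 in the controls. Past an adjusted p of 0.05 were 1209 of the 12516 genes tested. Replicate 8 lay nearest to the controls on the first principal component, at 8.58 against 41.3 and 57.5 for replicates 6 and 7 and -39.2 to -32.1 for the controls. Summed RNA of 12 cardiomyocyte markers was 101946, 116328 and 141297 CPM in replicates 6, 7 and 8 labelled knockout and 164891 to 181842 CPM in the controls, so the labelled tissue had its defining genes in every library.

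Junb and Myc rose in the libraries labelled knockout, and the other 7 early genes did not pass the test. All 9 genes passed the filter, a mean log2 CPM of 0 or more, and were tested with limma on the deposited log2 values, two-sided, with Benjamini-Hochberg adjustment over the 12516 genes. The 2 genes that rose stand beside a background of 4.79% of all tested genes that rose, 4.87% that fell and 9.66% that did either. The values of 3 genes, Junb, Ier3 and Myc, lay wholly above those of the controls, where 14.4% of all tested genes did, 16.2% lay wholly below and 30.7% did either. The same 3 genes had an unadjusted p under 0.05, as had 24.8% of all tested genes. The median log2 difference of the 9 genes was 0.46, beside -0.01 over all tested genes, and 6 of the 9 differences were positive.

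**Figure D1:**
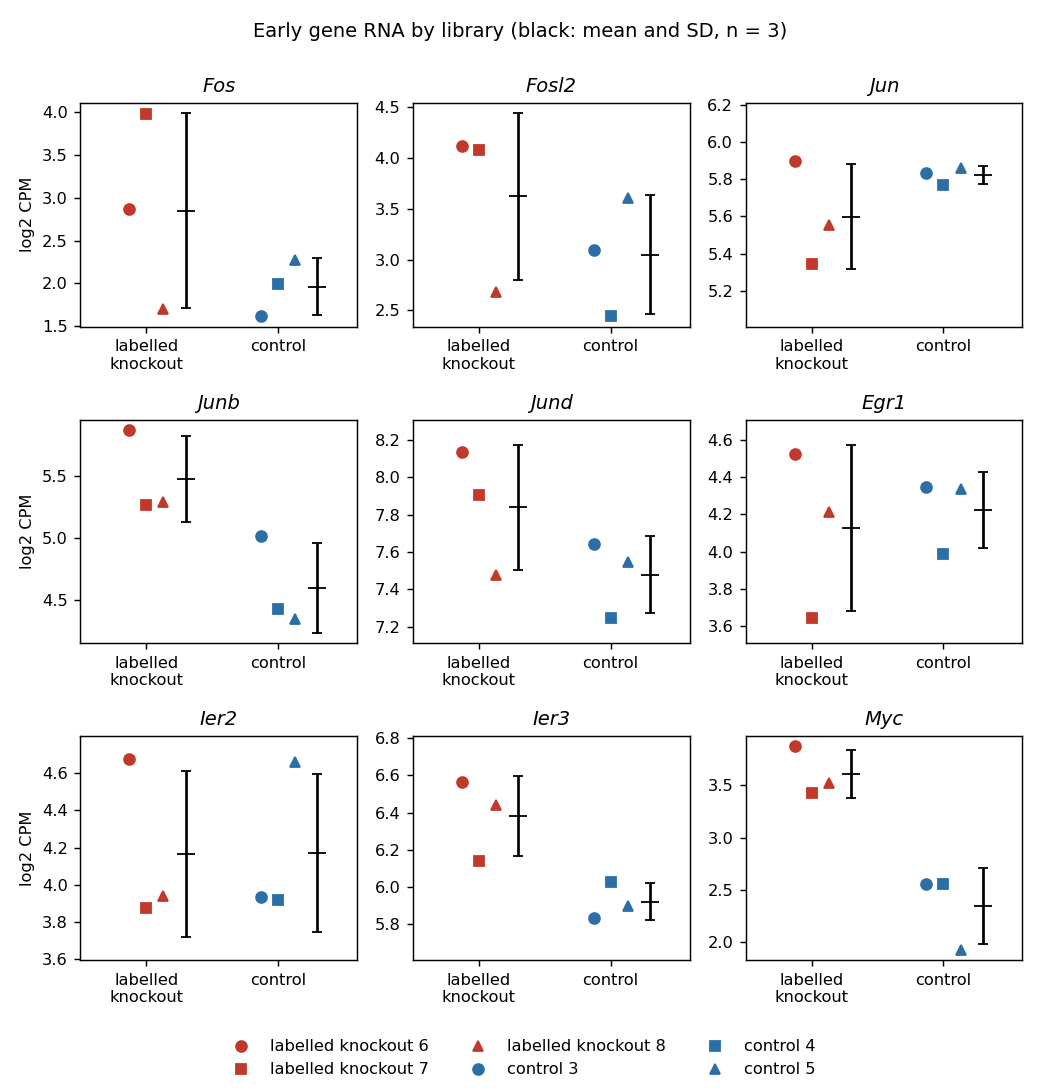
RNA of the 9 early genes as log2 CPM (vertical axes, with a range of their own for each gene) in the 3 libraries labelled knockout, left, and the 3 control libraries, right; black bars are the mean and SD. Junb, Ier3 and Myc show no overlap between the groups, while Fos and Fosl2 are high in replicates 6 and 7 only.

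Junb, whose product is the JUN family member that often restrains JUN, was past the test. It had 5.87, 5.27 and 5.29 log2 CPM in replicates 6, 7 and 8 labelled knockout, against 5.01, 4.43 and 4.34 log2 CPM in controls 3, 4 and 5. All 3 libraries labelled knockout were above all 3 controls, and control 3 stood above the other controls. Junb rose 1.84-fold (log2 difference 0.88 ± 0.23, SE, limma adjusted p = 0.030). The call ended without control 4, control 5 or replicate 6 (adjusted p = 0.14, 0.15 and 0.092) and in a fit without an intensity trend (0.13), and the log2 difference stayed between 0.68 and 1.09 with any 1 library left out. Junb lies at 84976909 to 84978748 on chromosome 8 (GRCm38, the assembly of mm10). In GENCODE M21 the gene reaches further, with a transcript outside the RefSeq span that overlaps Prdx2, a peroxiredoxin gene, on the opposite strand. Reads of such a pair cannot be told apart if strand was not used in counting. Antisense genes of GENCODE also overlap Jun (Junos) and Jund (Gm11175).

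Jun, the founding member and the strongest activator of the family, had 5.90, 5.34 and 5.55 log2 CPM in the libraries labelled knockout, against 5.83, 5.77 and 5.86 log2 CPM in controls. The 3 controls lay close together, with replicate 6 just above them and replicates 7 and 8 below. The log2 difference of Jun was -0.22, and its 95% confidence interval ran from -0.59 to 0.15 (limma adjusted p = 0.46). Jund, the JUN member known for its presence in resting cells, had 8.14, 7.90 and 7.48 log2 CPM in the libraries labelled knockout and 7.64, 7.25 and 7.55 log2 CPM in controls. Replicates 6 and 7 were above every control and replicate 8 was within the controls. The log2 difference of Jund was 0.36, and its 95% confidence interval ran from -0.02 to 0.74 (limma adjusted p = 0.23), and it passed the test without replicate 8 (0.54, adjusted p = 0.021).

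Fos, the partner of JUN proteins in the classical AP-1 dimer, varied most within the group labelled knockout. It had 2.87, 3.98 and 1.70 log2 CPM in replicates 6, 7 and 8, against 1.62, 1.997 and 2.28 log2 CPM in controls 3, 4 and 5, from 70, 160 and 27 reads against 40, 35 and 47 reads. Replicates 6 and 7 stood above every control and replicate 8 lay between controls 3 and 4. The SD was 1.14 in the libraries labelled knockout and 0.33 in controls. The log2 difference was 0.88 ± 0.50 (SE, 95% confidence interval -0.21 to 1.97, limma adjusted p = 0.30). It was 0.32 without replicate 7 and 1.46 without replicate 8, where it passed the test (adjusted p = 0.030).

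Fosl2, a FOS family gene whose product lasts longer than FOS and is linked to fibrosis in mice, was, like Fos, lower in replicate 8 than in replicates 6 and 7. It had 4.12, 4.08 and 2.68 log2 CPM in replicates 6, 7 and 8 labelled knockout, against 3.10, 2.44 and 3.61 log2 CPM in controls 3, 4 and 5. Replicates 6 and 7 were above every control, and replicate 8 was below controls 3 and 5. The log2 difference was 0.57 ± 0.41 (SE, 95% confidence interval -0.32 to 1.46, limma adjusted p = 0.42). Without replicate 8 it was 1.05, with an adjusted p of 0.0505, and it was 0.27, 0.33 and 0.35 without control 4, replicate 6 or replicate 7.

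Levels can be set side by side between genes once they are divided by transcript length, here as CPM per kb from GENCODE M21 transcripts tied to RefSeq. Jund was the most abundant AP-1 RNA, at 139.7 ± 31.2 CPM per kb in the libraries labelled knockout and 108 ± 14.9 CPM per kb in controls (SD, n = 3 each, also below). Its length here was that of 1 GENCODE transcript, 1668 bases, while RefSeq has 2 NM transcripts of Jund over a longer span. The level of Jund, and its share of the AP-1 sum below, depend on that length. Junb had 25.03 ± 6.33 CPM per kb in the libraries labelled knockout and 13.6 ± 3.64 in controls, and Jun had 15.4 ± 3.05 and 17.7 ± 0.577 CPM per kb in the same order of groups. Fos had 4.10 ± 3.02 CPM per kb in the libraries labelled knockout and 1.83 ± 0.424 in controls, and Fosl2 had 2.06 ± 0.948 and 1.32 ± 0.521. The order of the AP-1 genes was Jund, Junb, Jun, Fos and Fosl2 in the libraries labelled knockout, and Jund, Jun, Junb, Fos and Fosl2 in controls. In both groups the means of Jun and Junb, and those of Fos and Fosl2, lay less than 2 SDs apart, taking the larger SD. Of the other genes, Ier2 had 12.1 ± 4.01 CPM per kb in the libraries labelled knockout and 12.1 ± 3.82 in controls, and Egr1 had 5.90 ± 1.73 and 6.16 ± 0.837. Myc had 5.88 ± 0.991 CPM per kb in the libraries labelled knockout, beside Egr1, and 2.44 ± 0.580 in controls, between Egr1 and Fos.

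Per transcript length, the order of Junb and Jun differed between the groups. The ratio of Junb to Jun, per transcript length, was 1.73, 1.67 and 1.46 in replicates 6, 7 and 8 labelled knockout, against 0.996, 0.694 and 0.614 in controls 3, 4 and 5. Junb exceeded Jun in each library labelled knockout and in no control. This order rests on the lengths used, 1809 bases for Junb and 3189 for Jun. As CPM not divided by length, Junb was below Jun in every library. The libraries labelled knockout had 58.6, 38.5 and 39.0 CPM of Junb against 59.7, 40.6 and 47.0 CPM of Jun. On the log2 scale the ratio of CPM was higher by 1.10 (exact two-sided permutation p = 0.1, the smallest that 3 against 3 allows), and by 0.96 to 1.30 with any 1 library left out. This ratio was chosen after the values were seen. Jund held 73.4% to 76.6% of the summed level of the 5 AP-1 genes in the libraries labelled knockout and 74.2% to 77.0% in controls. Jun held 8.28%, 6.78% and 10.1% of that sum in the libraries labelled knockout and 11.3%, 13.9% and 12.5% in controls, and the groups did not overlap. Fos and Fosl2 together held 2.68%, 5.33% and 1.69% in the libraries labelled knockout and 1.71%, 2.17% and 2.82% in controls, with overlap. A share depends on every gene of the sum, and Jund and Junb had higher means in the libraries labelled knockout. The level of Jun itself overlapped between the groups (log2 difference -0.22, limma adjusted p = 0.46). In replicates 7 and 8 Jun had 12.7 and 14.7 CPM per kb, below every control. In replicate 6 it had 18.7 CPM per kb, above every control. Whether a lower level of Jun added to its lower share was not tested.

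**Figure D2:**
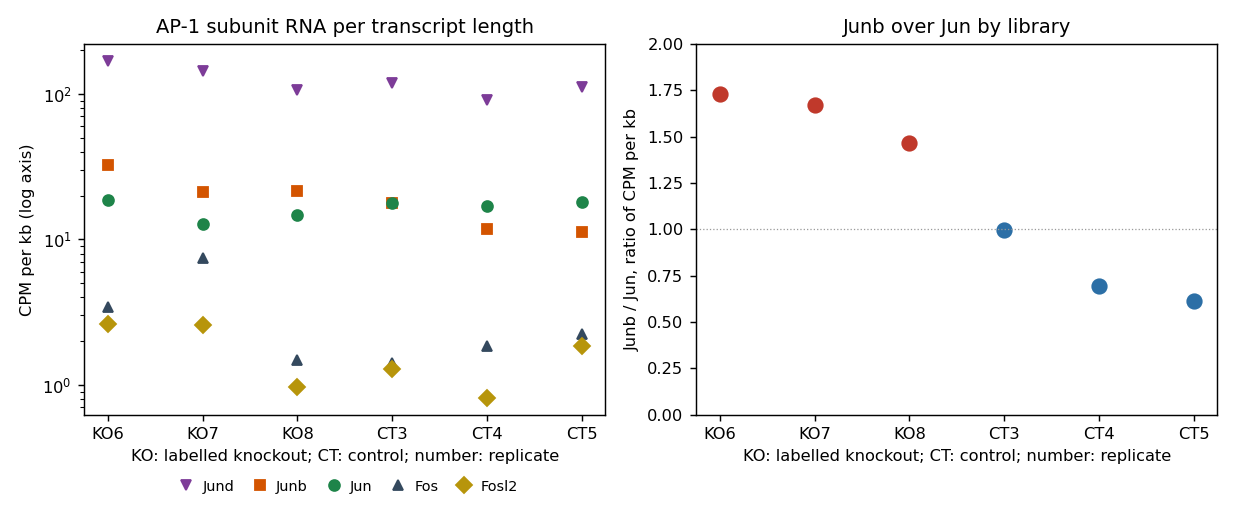
Left, RNA of 5 AP-1 genes as CPM per kb of transcript (log axis) in each library, labelled knockout (KO) before control (CT); right, the ratio of Junb to Jun in the same libraries, with a dotted line at equal levels. The ratio, of CPM per kb, is 1.46 to 1.73 in the libraries labelled knockout and 0.614 to 0.996 in the controls.

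Egr1, the zinc finger factor of the early response, had 4.52, 3.64 and 4.21 log2 CPM in the libraries labelled knockout, against 4.35, 3.99 and 4.34 log2 CPM in controls. Replicate 6 was the highest and replicate 7 the lowest of all 6 libraries. The log2 difference of Egr1 was -0.10, with a 95% confidence interval of -0.64 to 0.45 (limma adjusted p = 0.86), and 0.14 without replicate 7. Ier2, a nuclear early response protein, had 4.68, 3.87 and 3.94 log2 CPM in the libraries labelled knockout and 3.94, 3.92 and 4.66 log2 CPM in controls. One library of each group, replicate 6 and control 5, stood above the others, and the groups overlapped. The log2 difference of Ier2 was -0.01, with a 95% confidence interval of -0.61 to 0.60 (limma adjusted p = 0.99).

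Ier3, an early gene that NF-kappaB induces, had 6.56, 6.14 and 6.44 log2 CPM in the libraries labelled knockout, against 5.84, 6.03 and 5.90 log2 CPM in controls. Every library labelled knockout was above every control, with replicate 7 close to control 4. The log2 difference was 0.46 ± 0.15 (SE, 95% confidence interval 0.13 to 0.79), a 1.38-fold higher level, and it did not pass the test over all genes (limma adjusted p = 0.082). Without replicate 7 it passed (0.58, adjusted p = 0.040). Per transcript length Ier3 was second only to Jund among the 9 genes, with 74.1 ± 10.8 CPM per kb in the libraries labelled knockout and 53.6 ± 3.71 in controls.

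Myc had the largest difference of the 9 genes. It had 3.88, 3.43 and 3.53 log2 CPM in replicates 6, 7 and 8 labelled knockout, against 2.56, 2.56 and 1.92 log2 CPM in controls 3, 4 and 5. The 3 libraries labelled knockout lay well above the 3 controls. Myc rose 2.41-fold (log2 difference 1.27 ± 0.30, SE, limma adjusted p = 0.021). The reads behind these values were few, 142, 109.5 and 98 against 78, 52 and 36.5, with fractions because the deposited values are not whole multiples of 1 read in most genes with several transcripts (Myc has 4). The call ended without any 1 of the controls or without replicate 6, with adjusted p of 0.054 to 0.098, and in a fit without an intensity trend (0.061), and the log2 difference stayed between 1.06 and 1.37 with any 1 library left out. Myc lies at 61985341 to 61990361 on chromosome 15 (GRCm38).

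The libraries labelled knockout differed from each other over the 9 genes. In replicate 6 all 9 genes were above the control mean, with a median of 0.66 log2 above it, and it was the highest of the 3 libraries for 8 genes. In replicate 7, 6 genes were above the control mean and 6 genes were the lowest of the 3 libraries. In replicate 8, 3 genes were above the control mean, Junb, Ier3 and Myc, and the median was -0.01 log2. The number of early genes past the test was 4 without replicate 8 (Fos, Junb, Jund and Myc), 3 without replicate 7, 1 without control 3, and 0 without control 4, control 5 or replicate 6.

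**Figure D3:**
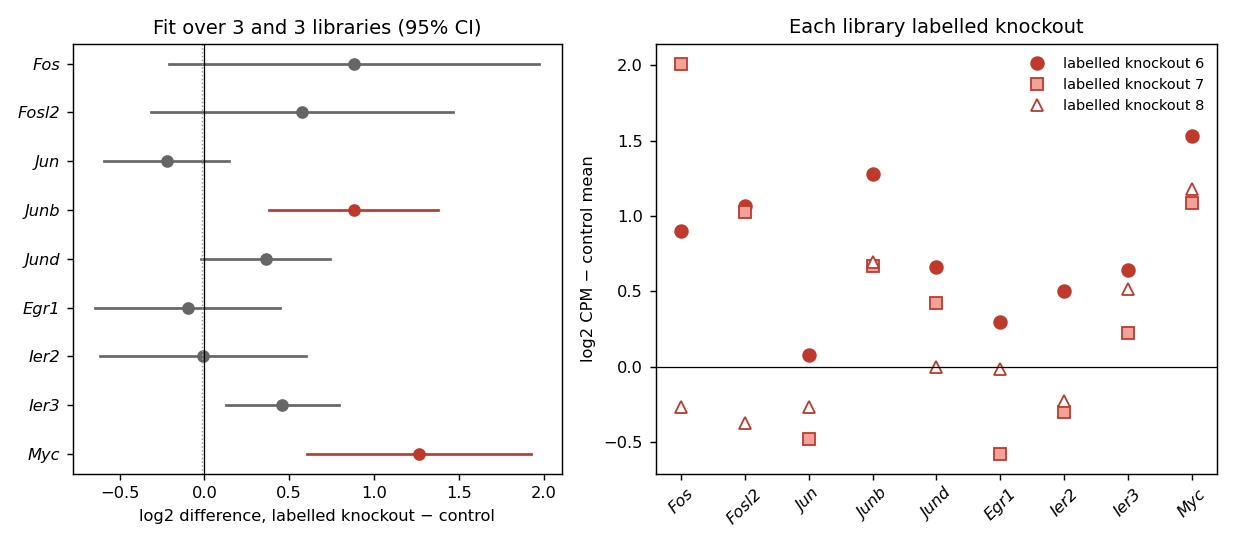
Left, log2 difference of each early gene between the libraries labelled knockout and the controls with its 95% confidence interval (red where the adjusted p is under 0.05; dotted line, median of all tested genes); right, each library labelled knockout as log2 CPM minus the control mean. Replicate 8 is above the control mean for Junb, Ier3 and Myc and at or below it for the other genes.

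The genes nearest to Fos, Egr1 and Myc over the 6 libraries were taken by the smallest root-mean-square difference of centred log2 CPM, as a description. Those nearest to Fos were Gpc6, a glypican, Eya2, Adgrg6, an adhesion receptor, Fndc1 and Sphk1, a sphingosine kinase, at 0.26 to 0.28 log2. All 5 were highest in replicate 7, as Fos was, a pattern that the choice by likeness to Fos favours. Those nearest to Myc were Gskip, Rasgef1b, Fam20a, Cacnb1 and Ninl, at 0.13 to 0.17 log2, with log2 differences of 1.04 to 1.45. Those differences follow from the choice by likeness to Myc over the same libraries, so they are given with no test. Those nearest to Egr1 were Dhrs7b, Gfer, Ing2, Rbm48 and Paqr7, at 0.051 to 0.0799 log2. Their log2 differences, -0.08 to 0.02, likewise follow from the choice by likeness to Egr1.

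Beyond the 9 genes, 4 of 41 other early genes rose and the other 37 did not pass the test, with a median log2 difference of 0.31. This count and those of the lists after it stand beside the 4.79% of all tested genes that rose and the 4.87% that fell. All these lists were chosen with earlier results of these data known. Ppp1r15a, the phosphatase subunit that ends the integrated stress response, rose 2.08-fold, with 6.17, 6.70 and 5.83 log2 CPM in the libraries labelled knockout and 5.40, 4.99 and 5.14 in controls (adjusted p = 0.0090). Cyr61, a secreted matrix-associated protein, rose 2.13-fold (adjusted p = 0.027), Maff, a small MAF partner of AP-1 proteins, 3.63-fold (0.028), and Hbegf, a growth factor of the EGF family, 3.38-fold (0.042). Hbegf had 5.01, 6.00 and 3.54 log2 CPM in replicates 6, 7 and 8 labelled knockout and 3.44, 3.41 and 2.42 in controls. In each of these 4 genes replicate 7 was the highest library and replicate 8 the lowest of its group. Egr2 and Egr3, the relatives of Egr1, had log2 differences of 1.26 ± 0.44 and 1.52 ± 0.81 (SE, adjusted p = 0.092 and 0.27). The count of other early genes was 7 without replicate 8, 1 without replicate 7 or control 3, and 0 without control 4 or 5. Ppp1r15a lost the call without control 4 or 5, and Cyr61, Maff and Hbegf lost it without any 1 library other than replicate 8 (adjusted p up to 0.061, 0.12, 0.12 and 0.19).

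Of 15 tested leucine zipper partners of AP-1, Maff and Mafk, both small MAF genes, rose and the other 13 did not pass. Mafk had 5.15, 5.77 and 4.19 log2 CPM in the libraries labelled knockout and 3.62, 3.60 and 3.59 in controls, a 2.70-fold rise (limma adjusted p = 0.015). Mafg, the remaining small MAF gene, had a log2 difference of 0.62 ± 0.22 (SE, adjusted p = 0.10), and Batf one of 0.75 ± 0.72 (adjusted p = 0.57). Both calls in this list ended without any 1 control and without replicates 6 or 7 (adjusted p up to 0.12). The list median was 0.30.

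Of 27 tested genes for SRF, its ternary complex factors and MAP kinases, Mapk14, the p38 alpha kinase, fell by 0.62 in log2 (limma adjusted p = 0.044) and the other 26 did not pass. Mapk14 lost the call without any 1 control or without replicates 6 or 7 (adjusted p up to 0.17), and 4 genes of the list passed without replicate 8. Rps6ka5, a kinase that acts on chromatin at early genes, had a log2 difference of -1.16 ± 0.40, and Map2k6, a kinase above p38, one of -1.07 ± 0.66 (SE, adjusted p = 0.0897 and 0.35). The list median was -0.02, beside -0.01 over all tested genes.

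Among the partners and targets of MYC, 1 of 12 and 2 of 26 tested genes passed the test, beside 9.66% of all tested genes. They were Mycn, Hk2 and Rrp9. Of 12 tested genes of the MYC-MAX network, Mycn, the paralog of Myc used in the embryonic heart, fell by 2.24 in log2 (limma adjusted p = 0.0498) and the other 11 did not pass. Mycn had 2.47, -0.54 and 0.05 log2 CPM in replicates 6, 7 and 8 labelled knockout and 2.70, 3.08 and 2.94 in controls, so replicate 6 stood near the controls. The Mycn values of replicates 7 and 8 lay near the filter level of 0 log2 CPM and rest on few reads. That call ended without any 1 library other than replicate 6 (adjusted p up to 0.18). Max, the obligate partner of MYC, had a log2 difference of -0.29 ± 0.24 and Mxd1, a repressor that competes for MAX, one of -0.56 ± 0.41 (SE, adjusted p = 0.49 and 0.44). Of 26 tested MYC targets, Hk2, a hexokinase, and Rrp9, a nucleolar protein, fell by 0.91 and 0.83 in log2 (adjusted p = 0.0035 and 0.012) and the other 24 did not pass, with a list median of -0.10. Tfrc, the transferrin receptor, and Cad, an enzyme of pyrimidine synthesis, had log2 differences of -0.91 ± 0.29 and -0.66 ± 0.20 (SE, adjusted p = 0.065 and 0.055). Rrp9 lost the call without any 1 control, which left 1 gene (adjusted p up to 0.085), and 4 genes of this list passed without replicate 6 or without replicate 8.

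Of 18 tested AP-1 targets, 7 rose and the other 11 did not pass, where 4.79% of all tested genes rose, and the median log2 difference was 0.58. The list was chosen with earlier results of these data known, so its count and median are descriptions and no test of AP-1 activity. Krt18, a keratin of simple epithelia, rose 19.9-fold, Timp1, which blocks matrix metalloproteinases, 8.68-fold, and Mmp3, 1 of those enzymes, 4.88-fold (limma adjusted p = 0.0016, 0.0012 and 0.0013). Krt18 had 5.86, 5.78 and 3.22 log2 CPM in replicates 6, 7 and 8 labelled knockout and 1.26, 0.63 and 0.02 in controls, and its log2 difference of 4.32 was 5.18 without replicate 8 and 3.86 to 4.63 without any other library. Timp1 had a log2 difference of 3.12, and of 2.75 to 3.61 with 1 library left out. Cd44, a hyaluronan receptor, rose 2.65-fold, Vim, vimentin, 1.76-fold, and Mt2, a metallothionein, 2.74-fold (adjusted p = 0.0025, 0.016 and 0.029), and the seventh gene was Hbegf. In 11 of the 18 genes every library labelled knockout was above every control, as in 14.4% of all tested genes. Edn1, endothelin, and Mt1 had log2 differences of 1.48 ± 0.45 and 0.69 ± 0.26 (SE, adjusted p = 0.057 and 0.11). The count was 4 without control 4 or 5, since Vim, Mt2 and Hbegf lost the call in both cases. Vim also lost it without replicate 6 or 7, Mt2 without control 3, and Hbegf without any 1 of those 3 libraries (adjusted p up to 0.10, 0.13 and 0.19). Of 10 tested EGR1 targets, Fn1, fibronectin, rose 2.66-fold and Vegfa, an endothelial growth factor, fell by 0.78 in log2 (adjusted p = 0.0016 and 0.020). Tgfb1, which is in both target lists, had a log2 difference of 0.46 ± 0.25 (SE, adjusted p = 0.29). The EGR1 list had a median of 0.22, its count was 1 without control 4 or 5 or replicates 6 or 7, and 4 without replicate 8. Vegfa was the gene that lost the call (adjusted p up to 0.12). Of the 17 genes past the test over these lists, 6 kept their call whichever library was left out: Cd44, Fn1, Hk2, Krt18, Mmp3 and Timp1. In the fit without an intensity trend Mmp3 was the 1 gene of the 17 past the test.

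**Figure D4:**
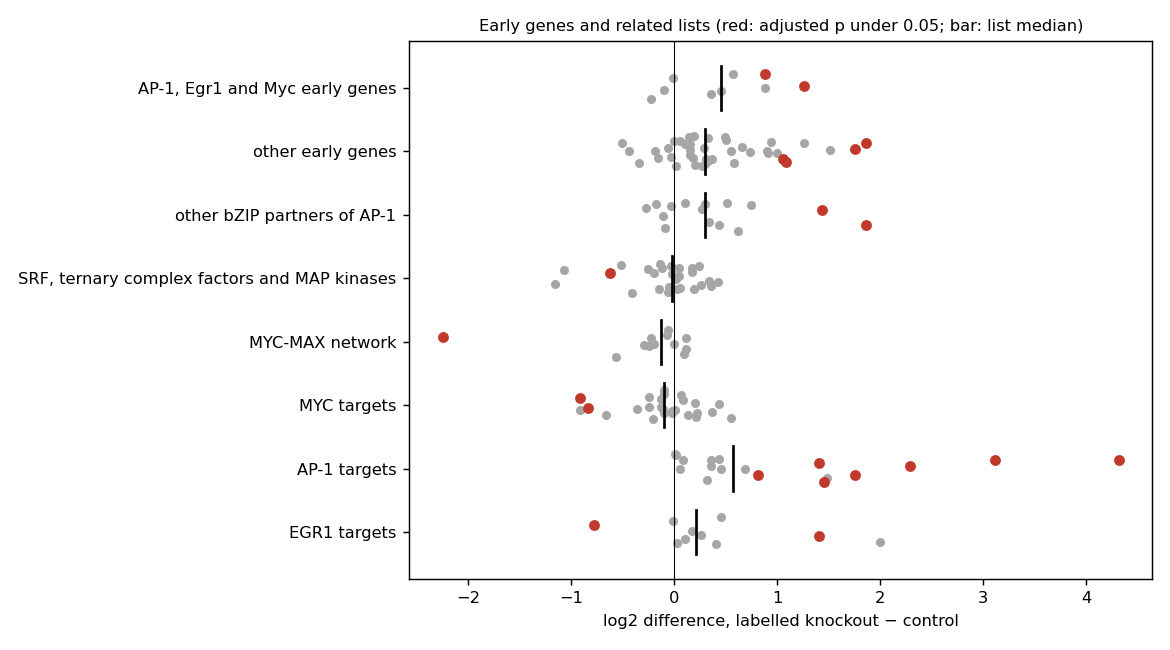
Log2 difference between the libraries labelled knockout and the controls for each tested gene of the early genes and of 7 related lists (1 point per gene, red where the adjusted p is under 0.05, black bar at the list median). AP-1 targets have a median of 0.58, while MYC targets and the MYC-MAX network have medians of -0.10 and -0.13. The lists were chosen with earlier results of these data known.

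Several cell types of the heart express the early genes and their targets, and markers of some of them moved beside these results. Summed RNA of 10 fibroblast markers was 4685 to 7291 CPM in the libraries labelled knockout and 2974 to 3660 CPM in controls, with 5 of the 10 past the test and higher. Macrophage markers (10 genes) summed to 1205 to 1367 CPM in the libraries labelled knockout and 979 to 1054 CPM in controls, and smooth muscle and pericyte markers (8 genes) to 1157 to 1778 and 840 to 1134 CPM. Endothelial markers (10 genes) summed to 1682 to 2083 CPM in the libraries labelled knockout and 2218 to 2352 CPM in controls. Of the 12 cardiomyocyte markers 5 fell, 1 of the 10 endothelial markers fell (Kdr) and 1 of the 8 smooth muscle and pericyte markers rose (Cspg4). The 10 macrophage markers did not pass the limma test (adjusted p = 0.10 to 0.86). These counts stand beside the 4.79% of all tested genes that rose and the 4.87% that fell. Among single tested genes, 30.7% did not overlap between the groups. No marker of these 5 lists was at the floor of the table in any library. Neutrophil (5 of 7 listed genes), lymphocyte (6 of 9) and erythroid (5 of 7) markers overlapped between the groups, at 6.79 to 17.3, 24.6 to 31.7 and 808 to 1231 CPM in the libraries labelled knockout and 2.67 to 15.2, 28.9 to 33.5 and 901 to 1386 CPM in controls. The part of these cell types in the values of the early genes was not tested.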

How the data were processed

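RNA of 6 mouse heart libraries was sequenced after TRIzol extraction, per the labels' protocols. The authors' deposited table holds 1 value per gene and library in log2 CPM, per the file headers and name, with a pseudocount that leaves a shared floor. Per the submitters' processing notes, CASAVA, HISAT2, edgeR and mm10 are named, without versions or order. Whether counting used strand was not established here. The names refer to RefSeq NM transcripts, and no RefSeq gene span overlaps those of the early genes, while GENCODE M21 has opposite-strand genes at Junb, Jun and Jund.

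The filter was a mean log2 CPM of 0 or more, which kept 12516 genes and left out 1617. They were compared with limma 3.58.1 (R 4.3.3), with 1 mean per group and a variance prior that follows the mean level. Tests were two-sided, p-values were adjusted by Benjamini-Hochberg, and the threshold was 0.05. SE and 95% confidence intervals are those of the fit. Txn1 was also compared by an exact permutation test (p = 0.7).

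Reads were recovered from the steps above the floor: of 7465 genes with 1 NM transcript, 7455 were whole in all 6 libraries within 0.01 reads. They were used for depth, for CPM per kb and for a limma-voom alternative. Precision is limited by 3 libraries per group.

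The genes named are the 10 early genes, Txn1, the 5 nearest to each of Fos, Egr1 and Myc, and, per related list, those past the test (the 6 with the smallest p if more) with up to 2 further genes with the largest difference. A gene that this rule names is not reported here. The early genes and the lists were chosen with earlier results of these data known. Gene families described under other observations lie outside this rule and were picked with their values known. Alternatives were other filters, scalings, a pseudocount of 1, variance models, limma-voom and each library left out.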

Additional observations from a re-analysis of the deposited data

How the results depend on the processing

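Over 9 early genes and 15 alternatives, Junb, Myc, Fos, Fosl2, Jund and Ier3 kept positive log2 differences and Jun a negative one in every fit that held them (Fos and Myc are not in the fit limited to a mean log2 CPM of 3 or more). Without an intensity trend 121 genes, 0 early genes and 1 related gene were past the test, against 1209, 2 and 17, and with a mean log2 CPM of 3 or more 1 early gene was. With 1 library left out the counts were 403 to 2185 genes, 0 to 4 early genes and 6 to 28 related genes. Junb and Myc also lost their calls without the trend, with adjusted p of 0.13 and 0.061. Hbegf lost its call without a filter, with a robust trend and with limma-voom, Mycn without a filter, and Cyr61 and Mt2 with a robust trend. The causes were not tested.

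Differences near 0 changed sign. Ier2 was at 0.0083 after quantile normalization, 0.033 with library weights and 0.0098 with limma-voom, and Gfer at -0.0018 with median-centred libraries, -0.016 with library weights and -0.023 with limma-voom. With 1 library left out the ranges were -0.025 to 0.18 for Txn1, -0.30 to 0.14 for Egr1, -0.26 to 0.24 for Ier2, -0.20 to 0.20 for Dhrs7b, -0.20 to 0.26 for Gfer, -0.23 to 0.14 for Ing2, -0.24 to 0.23 for Paqr7, -0.15 to 0.22 for Rbm48 and -0.036 to 1.17 for Batf. No paired analysis was possible because the groups share no replicate numbers. At 3 libraries per group, and with 27 to 160 reads for Fos and 36.5 to 142 for Myc, small differences of these genes were not detectable.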

Other observations

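In the NR4A, KLF and ID families of the list of other early genes, the genes did not pass the test. Of the NR4A orphan receptors, which respond to the same signals as Fos, Nr4a1 had 5.21, 6.61 and 5.60 log2 CPM in the libraries labelled knockout and 4.77, 4.80 and 5.02 in controls (log2 difference 0.95 ± 0.28, SE, limma adjusted p = 0.055). Its groups did not overlap. Nr4a2 and Nr4a3 had log2 differences of 0.18 and 1.00 (adjusted p = 0.91 and 0.41), with overlap. The KLF genes of the list, Klf2, Klf4, Klf6 and Klf10, had log2 differences of -0.34, 0.16, 0.33 and 0.37 (adjusted p = 0.31 to 0.59).

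The ID genes encode inhibitors of basic helix-loop-helix factors. Id1 had 5.27, 4.94 and 4.92 log2 CPM in the libraries labelled knockout, all below the 5.57, 5.43 and 5.64 log2 CPM of controls (log2 difference -0.51, limma adjusted p = 0.080). Id2 had 4.57, 4.83 and 4.67 log2 CPM in the libraries labelled knockout, all above the 4.24, 3.69 and 4.40 log2 CPM of controls (0.58, adjusted p = 0.13). Id3 had a log2 difference of 0.00 (adjusted p = 0.995).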
